A study of Mus musculus with 20 samples.

Results

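The genes described here are 10 imprinted genes that act on growth: H19, Igf2, Cdkn1c, Peg3, Grb10, Plagl1, Dlk1, Meg3, Rian and Mirg. They were given by symbol, and each symbol matched 1 Ensembl identifier among the 55401 genes of the count matrix. All 10 held at least 1 count. The filter on low counts left 13626 genes for testing, among them 8 of these 10, all but Mirg and Dlk1. The counts came from the gastrocnemius, the large calf muscle, of 20 C57BL/6 mice aged 24 months. HK, an extract of the plant Salvia haenkei, was given to 10 of them in the drinking water at 0.5 mg per kg per day from 20 months of age, and 10 were left untreated. Each group held 5 males and 5 females, and the mice were processed in 2 experimental batches of 8 and 12 mice with both groups and both sexes in each. Ribosomal RNA was depleted, so RNA without a poly(A) tail was also sequenced, and the libraries held from 13900180 to 30469644 counts.

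An imprinted gene is transcribed from only the maternal or only the paternal chromosome, according to marks laid down in the germ line. Many such genes act on growth, and the parental origin often goes with the direction: the paternally expressed Igf2 encodes a growth factor, while the maternally expressed Cdkn1c and Grb10 encode an inhibitor of cyclin-dependent kinases and an adaptor that dampens insulin and IGF receptor signalling. H19 and Igf2 are neighbours under 1 shared control region and are silenced after birth in most tissues, with muscle as a known exception for H19. Meg3, Rian and Mirg are non-coding RNAs of 1 maternally expressed cluster, which also holds the paternally expressed Dlk1, a transmembrane protein of muscle and fat progenitors. Peg3 and Plagl1 encode zinc finger proteins, both expressed from the paternal copy. Counts per gene do not tell the 2 parental copies apart, so imprinting itself was not measured.

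H19 (ENSMUSG00000000031) lies on chromosome 7 of GRCm38 at 142575529-142578143, minus strand, and is annotated as a long intergenic non-coding RNA. Igf2 (ENSMUSG00000048583) lies on the same strand at 142650766-142666816, and Cdkn1c (ENSMUSG00000037664), also on the minus strand, at 143458339-143461050. Peg3 (ENSMUSG00000002265) is far from them on chromosome 7, at 6703892-6730431 of the minus strand. The members in the Dlk1-Dio3 cluster are on the plus strand of chromosome 12 of the same build, with Dlk1 (ENSMUSG00000040856) at 109452823-109463336, Meg3 (ENSMUSG00000021268) at 109541001-109571726, Rian (ENSMUSG00000097451) at 109603940-109661716 and Mirg (ENSMUSG00000097391) at 109729764-109749460. Grb10 (ENSMUSG00000020176) is on chromosome 11 at 11930508-12038683, minus strand, and Plagl1 (ENSMUSG00000019817) on chromosome 10 at 13060504-13131694, plus strand. Some members share exon bases with another gene, so their reads could have been split or merged in counting: an antisense gene overlaps 625 exon bases of Cdkn1c and held 30 counts over all mice against 5211 for Cdkn1c, Igf2os overlaps 98 bases of Igf2 and held 51 counts against 345, and a gene on the same strand shares 3596 bases with Igf2 but held 1 count. Meg3 also shares 1228 exon bases with an antisense gene that was not analysed here. Whether strand was used in counting is not given in the sources used here.

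Of these genes, 5 are also hosts of microRNAs, the short RNAs that repress messengers through a seed of bases 2 to 8. RefSeq places 2 mature microRNAs in H19, 2 in Igf2, 3 in Meg3, 6 in Rian and 26 in Mirg (GRCm38.p6). The sequences below are shown because they are the processed products of the host RNAs whose levels follow, with the seed in capitals: the pair of H19, the pair of Igf2, a pair of Meg3, and the only pair among the 39 hosted microRNAs that share a seed, both in Mirg.
mmu-miR-675-5p: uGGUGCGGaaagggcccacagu
mmu-miR-675-3p: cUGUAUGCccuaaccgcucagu
mmu-miR-483-5p: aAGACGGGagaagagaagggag
mmu-miR-483-3p: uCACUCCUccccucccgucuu
mmu-miR-770-5p: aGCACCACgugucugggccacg
mmu-miR-770-3p: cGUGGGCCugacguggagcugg
mmu-miR-496a-5p: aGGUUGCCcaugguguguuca
mmu-miR-453: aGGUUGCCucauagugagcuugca
The genes annotated for these microRNAs held at most 1 count over all mice, so only their hosts were measured.

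The start of Meg3 is shown as the promoter at the head of the cluster whose 3 non-coding RNAs are compared below. It lies at chr12:109540746-109541045 (GRCm38.p6, plus strand, from RefSeq), from 250 bases before to 50 bases after the start site, and the capitals mark the cAMP response element TGACGTCA, 57 bases before the start site, and TATAAA, found on both strands in overlapping positions 29 and 25 bases before it.
Meg3 promoter: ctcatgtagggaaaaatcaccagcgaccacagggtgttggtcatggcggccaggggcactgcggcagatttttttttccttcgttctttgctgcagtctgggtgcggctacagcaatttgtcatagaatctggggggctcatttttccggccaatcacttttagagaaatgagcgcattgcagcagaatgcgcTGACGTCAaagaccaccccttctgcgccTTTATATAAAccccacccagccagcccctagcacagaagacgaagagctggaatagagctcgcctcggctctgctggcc
TGACGTCA was found in 1.79% and TATAAA in 13.6% of all 32851 RefSeq promoters of this length, read on both strands. Among the other members with a promoter in that table, TGACGTCA was found in Peg3, at 178 bases before its start site. The E-box CANNTG, the motif of the muscle regulators MyoD and myogenin, was found in promoters of Igf2, Plagl1, Grb10, Rian and Mirg and in a second promoter of Meg3, and in 72.3% of all promoters.

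The 10 genes covered a wide range of levels. H19 was the highest by far, with 264 ± 148 CPM (counts scaled to a common library size) per kilobase of merged exons (SD, n = 20; written CPM per kb), which placed it above 99.3% of 13619 genes past the filter with a known length. It was followed by Cdkn1c (7.09 ± 2.86), Grb10 (5.47 ± 1.80) and Peg3 (1.45 ± 0.71), in the same unit. Cdkn1c and Grb10 were not separated from each other, since Cdkn1c was above Grb10 in 11 of 20 mice, whereas Grb10 was above Peg3 and H19 above Cdkn1c in all 20.
Igf2, Plagl1, Meg3 and Rian formed a low band of 0.170 ± 0.0967, 0.157 ± 0.0866, 0.129 ± 0.0710 and 0.125 ± 0.0577 CPM per kb, in which neighbours changed places from mouse to mouse. They stood between percentiles 2.72 and 4.88 of the genes past the filter. Mirg followed with 0.0548 ± 0.0407 CPM per kb, below Rian in 19 of 20 mice, and Dlk1 was last with 0.00770 ± 0.0124. The growth factor gene Igf2 held 345 counts over the 20 mice against 239257 for its neighbour H19, a count ratio that ran from 274 to 1488 across mice with a median of 693.

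**Figure D1:**
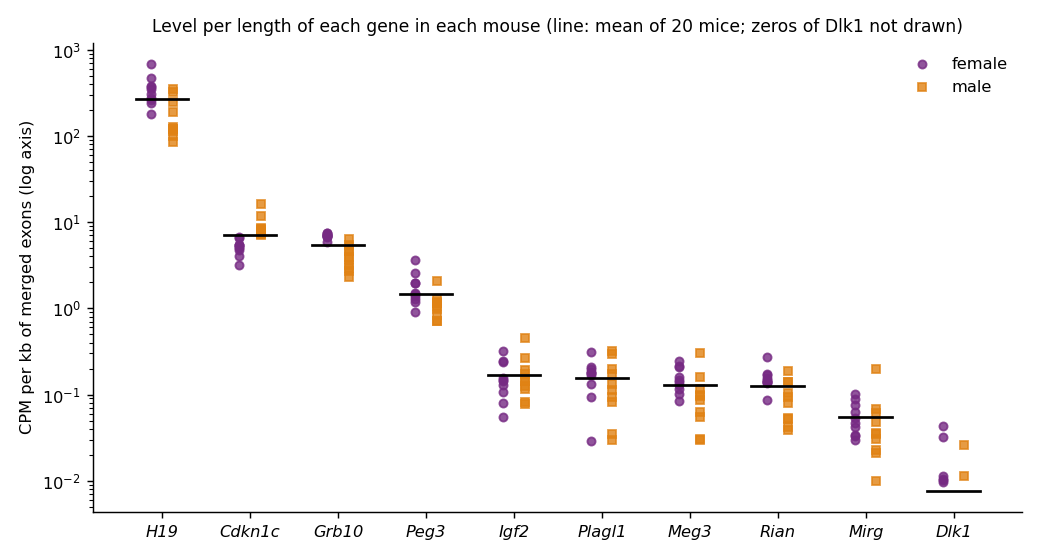
Level of each gene in each mouse in CPM per kb of merged exons, on a log axis, with females as circles, males as squares and the mean of 20 mice as a line; zeros of Dlk1 are not drawn. H19, at a mean of 264, stands apart from all others, and Igf2, Plagl1, Meg3 and Rian overlap, with means between 0.125 and 0.170.

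The tissue was checked by its markers: 10 genes of fast fibres and of muscle in general summed to between 162597 and 224443 CPM in every mouse. In bulk tissue, fewer cells of a type and less RNA per cell cannot be told apart.

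The members also varied more between mice than most genes of their level. The biological coefficient of variation is the spread between mice left once batch, sex and treatment were fitted as separate terms. A sex or HK difference that was not alike in both batches thus stayed in it. That of H19 was 0.314, which is 2.23 times the trend over genes at its level and above 97.8% of all genes in that ratio. Peg3 (0.306, 2.06 times the trend) was above 97.0%. The other 6 genes past the filter had ratios from 1.13 for Plagl1 to 1.58 for Meg3, between the 80.9th and the 92.5th percentile. All 8 thus spread more than at least 80.9% of genes did for their level.

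The comparison the study was designed for is HK against untreated mice at the same age. None of the 8 genes passed it, and neither did any other gene (0% of 13626 genes called, edgeR's quasi-likelihood test, Benjamini-Hochberg adjusted p of at least 0.356; 835 genes had an unadjusted p under 0.05). All 8 had a log2 fold change under 0, as did 49.0% of all genes tested. The sizes ran from -0.03 for Cdkn1c to -0.78 for Plagl1, and 2 of the 8, Plagl1 and Peg3, had an unadjusted p under 0.05, against 3.35% of all genes that were lower at that level.

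With HK, H19 ran from 247 to 939 CPM around a median of 553, and without it from 209 to 1676 CPM around 644. The groups overlapped over most of their range, although the highest values, 1676 and 1155, both belonged to untreated females. The log2 fold change was -0.33 (SE 0.21, edgeR adjusted p = 0.83), with a 95% interval from -0.76 to 0.11. The direction was not the same in the 2 batches: fitted alone, batch 1 gave 0.34 (edgeR adjusted p = 0.997) and batch 2 gave -0.75 (edgeR adjusted p = 0.735).

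Plagl1, whose zinc finger protein is known to stop the cell cycle and to switch on other imprinted genes, had the largest difference. With HK it ran from 0.225 to 1.63 CPM (median 0.878), and without it from 0.232 to 2.49 CPM (median 1.39). In CPM, 7 of 10 HK-treated mice lay under the median of the untreated mice, and after adjustment for batch and sex all 10 did, though only 1 lay under all untreated mice. The log2 fold change of -0.78 (SE 0.26, 95% interval -1.31 to -0.25) had an unadjusted p of 0.00631 and an edgeR adjusted p of 0.795. It rested on few reads, with 3 to 43 counts per mouse, and was -1.05 in batch 1 and -0.60 in batch 2.

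Peg3, a zinc finger gene active in muscle stem cells and in stress responses, ran from 9.57 to 25.9 CPM with HK (median 15.6) and from 9.57 to 49.0 CPM without (median 19.7). In CPM, 9 of 10 HK-treated mice were under the untreated median, against 7 of 10 after adjustment for batch and sex, and the CPM ranges shared their lower end. Its log2 fold change was -0.51 (SE 0.20, unadjusted p = 0.0185, edgeR adjusted p = 0.795).
The remaining 5 genes had log2 fold changes of -0.36 (Meg3), -0.20 (Rian), -0.19 (Igf2), -0.12 (Grb10) and -0.03 (Cdkn1c), each with an interval that included 0 and an edgeR adjusted p of at least 0.838. The tightest interval was that of Grb10, from -0.39 to 0.14.

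None of the marker genes of fibre types or of the other cell types described here was called for HK either. All 7 slow fibre markers had a log2 fold change under 0, with a median of -0.71, as had all 10 markers of fibro-adipogenic progenitors (-0.17), all 7 macrophage markers (-0.30), all 6 endothelial markers (-0.25) and all 6 markers of smooth muscle and pericytes (-0.23). All 5 blood markers were above 0, with a median of 0.47, and the adipocyte, tenocyte, satellite cell and fast fibre lists had members on both sides. The part of these in the values of the imprinted genes was not tested.

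Mirg and Dlk1 had too few reads for that fit, and each was compared by an exact permutation of the mean CPM within sex and batch, which was chosen after their values were seen and was not adjusted for other genes. Mirg ran from 0.0724 to 0.650 CPM with HK (median 0.253) and from 0.154 to 1.43 CPM without (median 0.404; exact permutation test, two-sided p = 0.115). Dlk1 went the other way from the rest. It had 14 counts in 7 of 10 HK-treated mice and 1 count in 1 of 10 untreated mice, a ratio of 13.2 relative to the total counts with a 95% interval from 2.00 to 557 that covers counting error only. All 5 HK-treated females had a count of Dlk1, from 1 to 4, as did 2 HK-treated males with 1 and 2. The exact permutation test gave an unadjusted two-sided p of 0.00667, and edgeR with a minimum of 5 counts in total gave an adjusted p of 0.771 over 22890 genes, so the difference was not called.

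**Figure D2:**
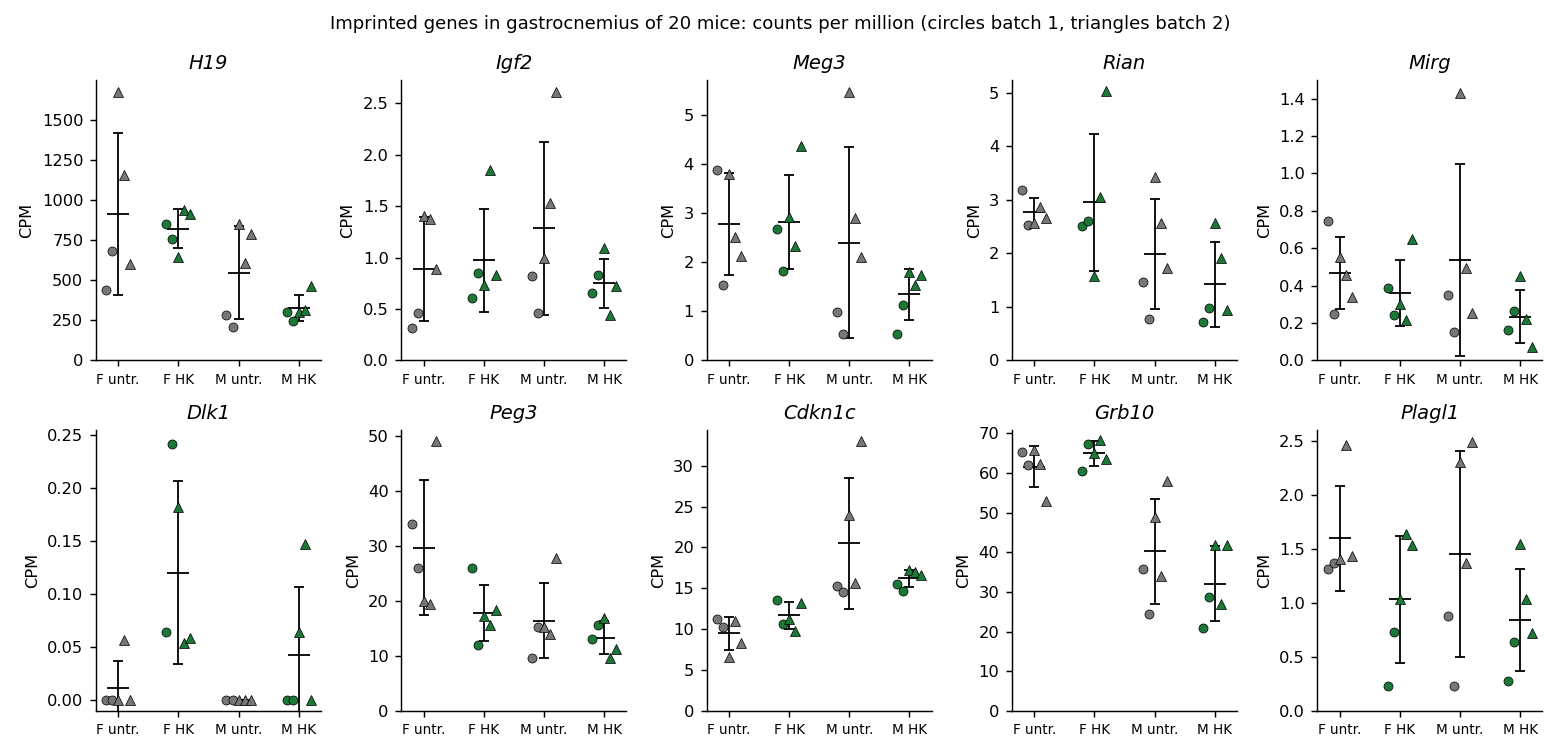
CPM of each gene in each mouse (circles batch 1, triangles batch 2) by sex (F, M) and treatment (untr., untreated), with mean and SD of 5 mice. The untreated and HK-treated points overlap for every gene, Dlk1 only at and near 0, and males stand above females for Cdkn1c and mostly below them for Grb10 and H19.

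Males and females were then compared in the same fit, since sex was balanced over the groups. Here 5 of the 8 genes were called, where 16.1% of all genes were. H19, Rian, Peg3 and Grb10 fell in males relative to females, a direction in which 7.33% of all genes were called, and Cdkn1c rose, a direction in which 8.79% were called.

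Grb10 had the lowest adjusted p. It was between 20.9 and 58.1 CPM in males, with a median of 34.8, and between 52.8 and 68.4 CPM in females, with a median of 64.2. Of the 10 females, 9 were above every male. The log2 fold change of males over females was -0.84 (SE 0.13, edgeR adjusted p = 9.86e-05). The females also lay closer together than the males, with an SD of 4.38 CPM against 11.6.

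Cdkn1c, the other growth inhibitor from the maternal copy, went in the opposite direction. It was between 14.6 and 33.0 CPM in males, with a median of 16.1, and between 6.55 and 13.6 CPM in females, with a median of 10.8. All 10 males were above all 10 females, which held for 1.33% of all genes in either direction. The log2 fold change was 0.77 (SE 0.15, edgeR adjusted p = 0.00148), and the highest male, at 33.0 CPM, was untreated.

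H19 was between 209 and 849 CPM in males, with a median of 307, and between 438 and 1676 CPM in females, with a median of 805. Of the males, 6 were below every female and 9 were below the female median. The log2 fold change was -1.09 (SE 0.21, edgeR adjusted p = 0.00104), a 2.12-fold difference. It was -1.38 in batch 1 and -0.91 in batch 2, and was called in both. Among HK-treated mice alone it was -1.35 (edgeR adjusted p = 5.34e-04), and among untreated mice alone -0.86 (edgeR adjusted p = 0.0941).

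Of the 3 RNAs of the Dlk1-Dio3 cluster, 1 was called in this comparison. Rian, which hosts small nucleolar RNAs, was between 0.710 and 3.42 CPM in males and between 1.58 and 5.03 CPM in females, with medians of 1.59 and 2.63, and had a log2 fold change of -0.82 (SE 0.23, edgeR adjusted p = 0.0193). Meg3 had a difference of like size, -0.73 (SE 0.28), that was not called (edgeR adjusted p = 0.0745), and the difference between the 2 genes was not tested. Mirg was between 0.0724 and 1.43 CPM in males and between 0.218 and 0.743 CPM in females, and its means of 0.385 and 0.414 CPM lay well within the spread (exact permutation test, two-sided unadjusted p = 0.857).
Both tested RNAs differed more in batch 1, with -1.58 for Meg3 and -1.45 for Rian, than in batch 2, with -0.27 and -0.44, where neither was called (edgeR adjusted p = 0.627 and 0.407).

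Peg3 was between 9.57 and 27.7 CPM in males and between 11.97 and 49.0 CPM in females, with medians of 14.6 and 19.7, and its log2 fold change was -0.65 (SE 0.20, edgeR adjusted p = 0.0326). Of the 5 calls it was the least stable to leaving out mice: it was lost in 7 of 20 fits that left out 1 mouse each (untreated males 1, 2, 3 and 4, untreated females 1 and 5, HK female 1), while H19, Rian, Cdkn1c and Grb10 held in all 20. Meg3 was called in 6 of 30 fits over all settings: without untreated male 3, without untreated female 5, without a filter on low counts, by DESeq2, in batch 1 alone and in HK-treated mice alone. Igf2 (0.16, SE 0.27) and Plagl1 (-0.26, SE 0.26) were not called.

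Some marker genes of fibre and cell types differed between the sexes as well, where 16.1% of all genes were called. Of 7 markers of slow fibres, 6 were called lower in males (Myh7, Tnnt1, Tnni1, Tnnc1, Myl2 and Atp2a2), and the sum of the 7 was between 771 and 6333 CPM in males, with a median of 971, against 2509 to 4691 CPM in females, with a median of 3401. Of 6 adipocyte markers 5 (Adipoq, Plin1, Cfd, Cidec and Retn) were also called lower in males, as were Myh2 of the fast fibre list and Gadd45a of the regeneration list. The fast fibre and muscle genes Tnnt3, Tnni2 and Ckm, the tenocyte marker Thbs4, the macrophage marker Cd68 and the satellite cell marker Msc were called higher. Msc and Gadd45a were the only calls of their lists, which went both ways. In males, 5 of 9 satellite cell, 7 of 12 regeneration and 6 of 10 fast fibre and muscle genes were above 0. Leaving out 1 mouse lost the call of Ckm in 16 of 20 fits, of Tnnt3 in 11, and of Msc and Adipoq in 8 each. Summed adipocyte markers were between 9.28 and 80.5 CPM in males and between 8.65 and 155 CPM in females. The part of these differences in those of the imprinted genes was not tested.

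The effect of HK was compared between the sexes by an interaction term, and none of the 8 genes was called, nor was any of 13800 genes (0%, edgeR adjusted p = 0.998 for each of the 8; 483 genes had an unadjusted p under 0.05). Cdkn1c had the lowest p of the 8, with a log2 difference between the effect in males and that in females of -0.63 (SE 0.28, unadjusted p = 0.0352): its mean was 20.5 CPM in untreated and 16.2 in HK-treated males, and 9.46 in untreated and 11.7 in HK-treated females. For H19 the same difference was -0.59 (SE 0.39, unadjusted p = 0.148), with a mean of 547 CPM in untreated and 324 in HK-treated males, and of 909 and 821 CPM in females.

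The batches differed for 37.1% of all genes, and for 4 of the 8 members. Plagl1 (log2 fold change of batch 2 over batch 1 of 1.18), Igf2 (0.94), Meg3 (0.83) and H19 (0.75) were called higher in batch 2 (edgeR adjusted p from 0.00202 to 0.0262), while Rian (0.57), Grb10 (0.28), Cdkn1c (0.13) and Peg3 (0.03) were not called. Each comparison above carries batch as a term for this reason.

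**Figure D3:**
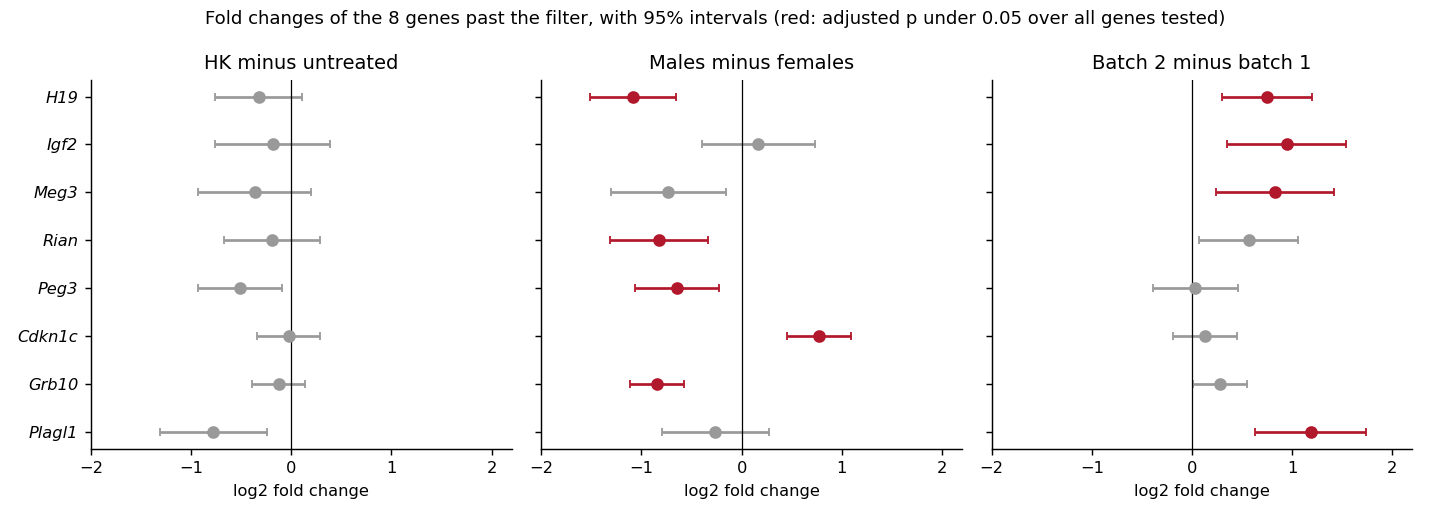
Log2 fold changes of the 8 genes past the filter with 95% intervals, for HK minus untreated, males minus females and batch 2 minus batch 1; red marks an adjusted p under 0.05. No interval is red for HK, 5 are for sex and 4 for batch.

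Covariation between the members was examined over the 20 mice on log2 CPM with batch and sex taken out as separate terms. A sex difference that was not alike in both batches stayed in these values. Adjusted Meg3 had a mean of 0.73 in males and 1.44 in females of batch 1, against 1.32 and 0.85 in batch 2. Rian had 0.81 and 1.40, against 1.30 and 0.91. Such a difference can enter an r, within batches too, while the permutations exchanged mice only within sex and batch. Of the 28 pairs of the 8 genes past the filter, 26 had a positive Pearson's r, with a median of 0.31; 19 were positive within batch 1 and 27 within batch 2. None passed a permutation test adjusted over the 28 pairs, for which the lowest adjusted p was 0.0519, and 6 had an unadjusted p under 0.05. Treatment was left in these values, and with it taken out too, 0 of the 28 pairs were called.
The highest r was that of Meg3 and Rian, 0.69 (permutation test, unadjusted p = 0.00371, adjusted p = 0.0519), with a Spearman's rho of 0.67 (permutation p = 0.0117). It was 0.81 within batch 1, 0.64 within batch 2 and 0.55 without the 2 mice farthest from the median of Meg3. Rian ranked 62nd of 13625 genes by r to Meg3. Rian and Plagl1 (r = 0.57, permutation p = 0.00366, adjusted p = 0.0519; rho = 0.59, permutation p = 0.00563) had the lowest p of the 28 pairs by r and by rho.

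Mirg, which was below the filter, was also close to its cluster. Its r was 0.80 with Meg3 and 0.76 with Rian (permutation p = 6e-05 and 8e-05; adjusted over 45 pairs of all 10 genes, p = 0.0018 for each), with rho of 0.75 for each (permutation p = 1.4e-04 for each). The correlations were 0.88 and 0.69 within batch 1 and 0.81 and 0.78 within batch 2. Without the 2 mice farthest from the median of the partner the r of Mirg fell to 0.57 with Meg3 and to 0.72 with Rian. The ratios of their counts varied between mice, and whether by more than counting noise was not tested: Rian had 0.542 to 1.65 counts for each count of Meg3, with a median of 1.14, and Mirg had 0.0417 to 0.353, with a median of 0.162. Dlk1, from the paternal copy of the same cluster, had an r of -0.15 with Meg3, -0.03 with Rian and -0.22 with Mirg (permutation p from 0.402 to 0.903), with rho of -0.15, 0.04 and -0.23 (permutation p from 0.346 to 0.850).

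H19 and Igf2, the neighbours on chromosome 7, had an r of 0.58 (permutation p = 0.0239, adjusted p = 0.167; rho = 0.56, permutation p = 0.0218), which was 0.53 in batch 1, 0.59 in batch 2 and 0.66 without the 2 mice farthest from the median. Cdkn1c and Grb10, which were called in opposite directions between the sexes, had an r of 0.60 once sex was taken out (permutation p = 0.0305, adjusted p = 0.171; rho = 0.54, permutation p = 0.0596). The r of Peg3 with the other 7 genes past the filter was low, from -0.05 (H19) to 0.24 (Cdkn1c). Igf2 was also near 0 with Meg3 (-0.02) and Rian (0.06). With Dlk1, below the filter, Peg3 had an r of -0.60 (permutation p = 0.0193, adjusted over 45 pairs p = 0.145). By rank it was -0.57 (permutation p = 0.0126), and r was -0.76 in batch 1 and -0.50 in batch 2.

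**Figure D4:**
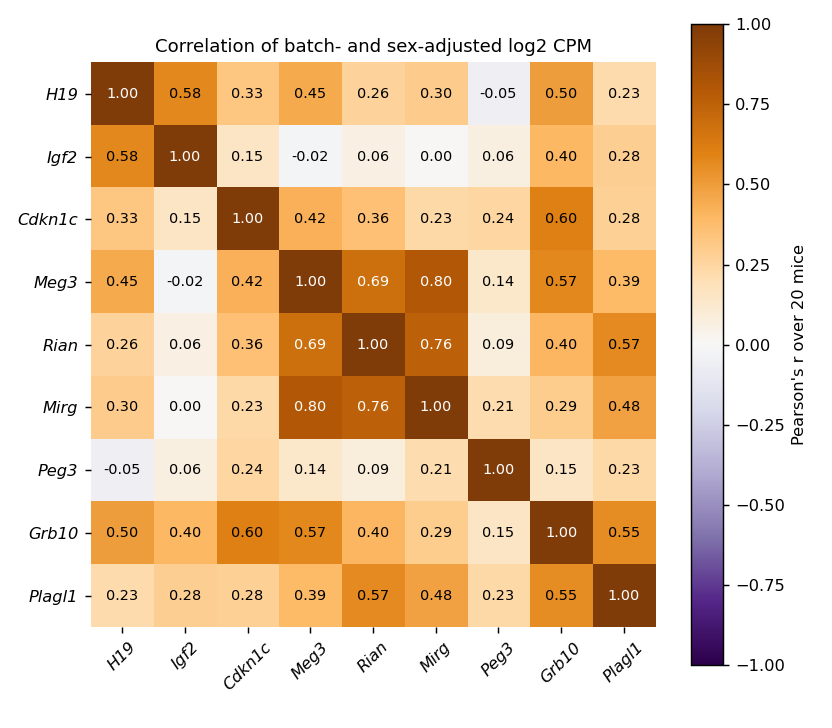
Pearson's r between members over 20 mice, on log2 CPM adjusted for batch and sex; Dlk1 is left out. The block of Meg3, Rian and Mirg holds the highest values, from 0.69 to 0.80, and the row of Peg3 stays between -0.05 and 0.24.

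The genes whose pattern was most like each member over the 20 mice, among 13625 genes, were as a rule not imprinted genes, and are given as a description. For H19 they were Rpl13a (r = 0.87), a ribosomal protein gene with near-identical copies elsewhere in the genome, Nelfcd (0.84) and Gm28653 (0.82). For Igf2 they were AC113961.1 (0.80), Notch2 (0.73) and Chrm3 (0.72), and for Meg3 Col16a1 (0.81), Gngt2 (0.80) and Mtmr11 (0.80). Rian was nearest to Mcub (0.87), S100a10 (0.87) and Dcbld2 (0.87), and Peg3 to Aldh9a1 (0.82), Ghdc (0.78) and Zfp40 (0.74).
Cdkn1c was nearest to Cxcr4 (0.82), Zfp365 (0.82) and Prkcd (0.76), Grb10 to Klhl13 (0.90), Pik3r6 (0.85) and Ppfia4 (0.83), and Plagl1 to Pea15a (0.88), Cers5 (0.88) and Rnase4 (0.86). The values of Zfp365 and Prkcd with Cdkn1c were 0.20 and 0.32 in batch 1 against 0.93 and 0.87 in batch 2, so these rested on batch 2. Notch2 and Chrm3 with Igf2 had 0.34 and 0.45 in batch 1 against 0.83 and 0.80 in batch 2. Gm28653 with H19 had 0.51 against 0.92.

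The members were then set beside 12 lists of marker genes of muscle states and of other cell types, using for each mouse the mean z score of a list. Of 96 relations, a set added after the members' values were seen, 10 had an adjusted permutation p under 0.05. The highest was that of H19 with 12 genes of regenerating or denervated muscle (r = 0.83, permutation p = 3e-05, adjusted p = 0.00288; rho = 0.85, permutation p = 5e-05, adjusted p = 0.0048). It was 0.80 in batch 1, 0.85 in batch 2 and 0.83 without the 2 mice farthest from the median of the list. Treatment was left in the values used for these lists, so a difference between HK-treated and untreated mice can enter an r. Adjusted H19 had a mean of 8.77 with HK and 9.49 without in batch 2, against 9.31 and 8.95 in batch 1. The relations with treatment taken out were not tested.
All 12 genes had a positive r with H19, with a median of 0.63 against -0.02 over all genes, and 11 were positive in both batches. Chrna1, a subunit of the muscle acetylcholine receptor that is also made in adult fibres, had 0.80, Mymk, which fuses myoblasts, 0.78, Ncam1, the adhesion molecule of denervated fibres, 0.78, and Myh8, the perinatal myosin, 0.77. Myh8 had 0.26 in batch 1 against 0.86 in batch 2, Myh3 0.10 against 0.81 and Myl4 -0.16 against 0.78, so these rested on batch 2. Gadd45a went the other way, with 0.88 in batch 1 and 0.0069 in batch 2. Myog and Myod1, the regulators of muscle differentiation, had 0.28 and 0.27. In the HK comparison none of the 12 genes was called, and 8 had a log2 fold change under 0, with a median of -0.36 against 0.0024 over all genes; Myh3, the embryonic myosin, had the lowest p (-1.43, unadjusted p = 0.00456) and Gadd45a the lowest p among those above 0 (0.34, unadjusted p = 0.046).

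**Figure D5:**
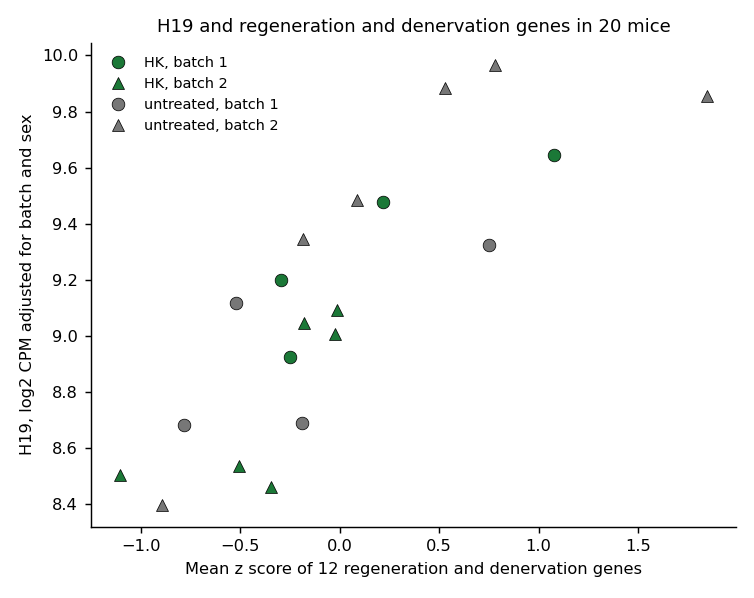
H19 (log2 CPM adjusted for batch and sex) against the mean z score of 12 genes of regeneration and denervation in 20 mice, by treatment (colour) and batch (shape). H19 runs from 8.40 to 9.97, and r is 0.80 within batch 1 and 0.85 within batch 2.

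The other 9 relations belonged to Plagl1, Rian and Grb10. Plagl1 went with markers of fibro-adipogenic progenitors, the stromal cells of muscle (r = 0.81, permutation p = 7e-04, adjusted p = 0.0209; rho = 0.76, permutation p = 0.0017), and with tenocyte, satellite cell, macrophage and smooth muscle markers (r from 0.63 to 0.66, adjusted permutation p from 0.0209 to 0.0463). Rian went with macrophage (r = 0.74, permutation p = 0.00151, adjusted p = 0.0245; rho = 0.68, permutation p = 0.00453), fibro-adipogenic and tenocyte markers. Grb10 went with satellite cell markers (r = 0.81, permutation p = 0.00482, adjusted p = 0.0463; rho = 0.81, permutation p = 0.00338). For slow fibre markers, which differed between the sexes, H19 had an r of 0.57 (permutation p = 0.0144, adjusted p = 0.0985; rho = 0.51, permutation p = 0.0378) and Grb10 one of 0.60 (permutation p = 0.0353, adjusted p = 0.197; rho = 0.73, permutation p = 0.00461, adjusted p = 0.0343) after sex was taken out. The relation of Grb10 thus passed by rank and not by r, as did those of Cdkn1c with satellite cell markers (r = 0.66, permutation p = 0.00921, adjusted p = 0.0737; rho = 0.73, permutation p = 0.00267, adjusted p = 0.0343) and of Plagl1 with endothelial markers (r = 0.62, permutation p = 0.00644, adjusted p = 0.0562; rho = 0.66, permutation p = 0.00465, adjusted p = 0.0343). Without the 2 mice farthest from the median of the slow fibre list, the r of H19 with it fell to 0.36. Within batches that r was 0.32 in batch 1 and 0.62 in batch 2. For Grb10 the same values were 0.75, 0.85 and 0.54.

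The neighbours and relatives of the members were looked at from lists written from general knowledge. Between the sexes, the share called over all genes was 16.1%. In the distal cluster of chromosome 7, which holds H19, Igf2 and Cdkn1c, 7 other imprinted or neighbouring genes passed the filter, and 1 was called between the sexes: Nap1l4, a histone chaperone, was higher in males by 0.12 on the log2 scale (SE 0.04, edgeR adjusted p = 0.0472), a call that was lost in 15 of 20 fits without 1 mouse and in 7 of 9 other settings. None was called for HK, where Kcnq1 had the lowest p (-0.43, unadjusted p = 0.0669), and Kcnq1ot1, the non-coding RNA that silences Cdkn1c on the paternal copy, had 0.11 (unadjusted p = 0.185). In the Dlk1-Dio3 cluster the only other gene past the filter was Dio3os, which was higher in males (0.99, SE 0.31, edgeR adjusted p = 0.0355), the opposite direction to Rian, a call lost in 9 of 19 fits without 1 mouse and in 4 of 7 other settings. In the Peg3 cluster it was Zim1, which was lower in males (-0.55, SE 0.13, edgeR adjusted p = 0.00694), the same direction as Peg3.

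Of 33 imprinted genes at other loci that passed the filter, 3 were called between the sexes, where 16.1% of all genes were. Slc38a4, an amino acid transporter (0.46), and Ddc, an aromatic amino acid decarboxylase (0.75), were higher in males, and Igf2r, the receptor that clears IGF2 (-0.14), was lower (edgeR adjusted p from 0.00168 to 0.0282). The call of Ddc was lost in 3 of 20 fits without 1 mouse, and in other settings Igf2r was lost in 6 of 9, Ddc in 4 of 9 and Slc38a4 in 2 of 9. None of them was called for HK, with 17 above and 16 under 0 and a median log2 fold change of 0.00. The lowest p among those under 0 was that of Mest (-0.87, unadjusted p = 0.0343), and among those above 0 that of Impact (0.63, unadjusted p = 0.0466).

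Of 15 genes of IGF signalling past the filter, 3 were called between the sexes, where 16.1% of all genes were. Igf1, the growth factor of postnatal muscle, was higher in males by 1.23 on the log2 scale (SE 0.19, edgeR adjusted p = 1.5e-04), with a mean of 18.4 CPM against 7.89 in females. Irs1, the adaptor below the receptors of insulin and IGF1, was lower in males (-0.42, SE 0.09, edgeR adjusted p = 0.00387), and so was Igf2r. For HK none was called. The lowest p values were those of Igf2bp2, an RNA-binding protein of Igf2 messengers (-0.84, unadjusted p = 0.00365), and Irs2 (1.05, unadjusted p = 0.00539). Of 10 genes that keep imprints or that set or remove DNA methylation, 1 was called between the sexes, against the same 16.1%. Ctcf, the insulator protein of the H19 control region, was lower in males by a small margin (-0.14, SE 0.05, edgeR adjusted p = 0.0488). The call was lost in 10 of 20 fits without 1 mouse and in 8 of 9 other settings. None was called for HK, where Zfp445 (0.15, unadjusted p = 0.0445) and Uhrf1 (-0.77, unadjusted p = 0.0843) had the lowest p in each direction.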

How the data were processed

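Total RNA of gastrocnemius was extracted with TRIzol, depleted of ribosomal RNA and sequenced on an Illumina NextSeq. Per the labels and the study's methods, the authors aligned the reads with STAR 2.6.1c to GRCm38.p6 with GENCODE M25 and deposited raw counts per gene, which were used as deposited. For the counting tool and its strand setting, the sources used here give nothing. Differences were tested with edgeR 4.0.16 in R 4.3.3 (limma 3.58.1 loaded), with TMM normalisation, filterByExpr and the quasi-likelihood test on batch, sex and treatment, and Benjamini-Hochberg adjustment over all genes tested at 0.05. DESeq2 1.42.0 was an alternative. CPM uses TMM library sizes. Correlations used log2 CPM (prior count 2) with batch and sex taken out as separate terms. Permutation was two-sided within sex and batch (100000 resamples, smallest p 1e-05), adjusted over 28 pairs.

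The members and gene lists were chosen with earlier results of these data known. Named besides the members were, by rule, the 3 genes nearest to each by r, overlapping genes, the genes of each list that were called, and otherwise the gene of lowest p in each direction; for HK the fibre and other cell type lists are given by counts alone, and 1 of them is not reported here. The tests of Mirg and Dlk1 and the correlations with marker lists were added after the values were seen. Positions are from GENCODE M21. The scripts were tested on simulated data. Replicates are separate mice; libraries of a group differed by more than counting noise (chi-square per degree of freedom of at least 8.06). Young mice were not analysed here.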

Additional observations from a re-analysis of the deposited data

How the results depend on the processing

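For HK, no member was called under any alternative except without a filter on low counts, where 3 were (H19, Peg3, Plagl1). In that fit the prior degrees of freedom were infinite, against 4.26 with the filter, so the spread came from the trend over genes alone. H19 and Peg3 spread 2.23 and 2.06 times the trend, which that fit does not allow for. Plagl1 spread only 1.13 times the trend, and its adjusted p in that fit was 0.0182 by edgeR. With at least 5 counts in total, chosen after seeing the data, 0 were called. The interaction gave 1 call (H19) without a filter. Between the sexes, 3 members were called in batch 2 alone and 1 in untreated mice alone. With the replicate number as a block, which does not pair the mice, 4 were called (Rian adjusted p = 0.0648 by edgeR), and the HK log2 fold change of Cdkn1c was 0.0137. Of the correlations, 6 pairs were called with batch alone taken out, 4 without a filter, and 0 to 1 when 1 mouse was left out (1 without untreated male 5, untreated female 4, HK male 5, HK female 3 or HK female 5). The HK log2 fold change turned sign in batch 1 alone for H19 (0.34), Igf2 (0.54) and Cdkn1c (0.10), and in females alone for Igf2 (0.24), Rian (0.0738), Cdkn1c (0.30) and Grb10 (0.0713). That of sex for Igf2 was -0.0106 in batch 2 alone and -0.32 in HK-treated mice alone. Leaving out 1 mouse moved Cdkn1c for HK from -0.10 to 0.10, Igf2 for sex from -0.0243 to 0.30 and the interaction of Plagl1 from -0.13 to 0.28. The cause of these was not tested. Igf2, Plagl1, Meg3, Rian, Mirg and Dlk1 held few counts, which limits their precision.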
